A study of Mus musculus with 3 samples.

Results

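The platelet-derived growth factor (PDGF) genes comprise 2 receptors, Pdgfra and Pdgfrb, and 4 ligands, Pdgfa, Pdgfb, Pdgfc and Pdgfd. These 6 genes were taken by name from the 36167 features measured in nuclei of the newborn mouse aortic valve region, and all 6 were detected. Each was measured per pool and per class of nuclei, in nuclei with at least 1000 unique molecular identifiers (UMIs, each counted as 1 RNA molecule) and at most 5% mitochondrial UMIs.

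PDGF ligands are secreted dimers, and their receptors are tyrosine kinases of the cell surface that pair when a ligand binds. Pdgfra encodes the alpha receptor, a familiar mark of fibroblasts and other connective tissue cells, and Pdgfrb encodes the beta receptor, a familiar mark of the cells that wrap blood vessels. PDGF-A acts through the alpha receptor, PDGF-B binds both receptors, and PDGF-C and PDGF-D are secreted in a latent form and become active when proteases remove their CUB domain. In vessels, PDGF-B from endothelium is known for recruiting pericytes and smooth muscle cells that carry the beta receptor.

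The samples were 3 pools of aortic valve structures, each made from 22 to 24 aortic roots of mice at postnatal day 1. The mice carried B6.Cg-Scx<tm1.1(EGFP)Skom, a line whose name records a targeted Scx allele with EGFP. They form 1 group with no treatment and no other genotype, so every comparison is between classes of nuclei inside the same pools. Pool was a block in the tests, so the p-values rest on the spread left after the level of each pool is taken out. In the comparisons between classes, all classes share 1 estimate of that spread per gene. The pools mix animals, so differences between individual mice cannot be seen.

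After filtering, 13182 nuclei remained, with 34053290 UMIs in pool 1, 17557338 in pool 2 and 18344733 in pool 3. Nuclei were clustered without the 6 genes and without the pathway genes used below, and clusters were named "-like" from markers of 20 cell types. In all, 10 classes had at least 20 nuclei in every pool: smooth muscle-like (3352 nuclei), cardiomyocyte-like (3006), endothelial-like (2730), valve interstitial-like (1484), fibroblast-like (1300), mesothelial-like (366), macrophage-like (246), pericyte-like (128), lymphatic endothelial-like (117) and erythroid-like (73). The pericyte-like cluster passed for 6 pericyte markers and also for 5 smooth muscle markers, and 1 endothelial-like cluster and 1 cardiomyocyte-like cluster each had a marker of another class among its 10 leading genes (Fabp4, an adipocyte marker, and Snap25, a neuron marker). A cluster of 253 nuclei, 179 of them in pool 3, passed for no marker list and had a median of 14515 UMIs; it was kept out of the classes, with 69 melanocyte-like and 58 adipocyte-like nuclei. Pools shared between 44 and 99 cell barcodes pairwise among the deposited nuclei.

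For 3 genes whose levels separate the classes described next, the 250 bases before the annotated start are shown to place each gene and its promoter letters beside its values. They come from the RefSeq promoter table for GRCm38.p6, an older build than the GRCm39 named in the submitters' processing notes, and 4 of the 6 genes had an entry. Capitals mark a CArG box, the motif of the serum response factor that smooth muscle genes often carry, or the letters TATAA, searched on both strands. Pdgfra lies on the plus strand of chromosome 5, with this window at chr5:75152001-75152250, and holds neither motif.
Pdgfra: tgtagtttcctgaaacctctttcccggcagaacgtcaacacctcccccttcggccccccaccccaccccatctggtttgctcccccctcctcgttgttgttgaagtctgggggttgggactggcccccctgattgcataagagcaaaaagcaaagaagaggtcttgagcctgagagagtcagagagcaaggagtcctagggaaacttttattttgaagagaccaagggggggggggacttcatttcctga
Pdgfc lies on the plus strand of chromosome 3, with this window at chr3:81036166-81036415, and holds 1 CArG box that begins 17 bases before the start.
Pdgfc: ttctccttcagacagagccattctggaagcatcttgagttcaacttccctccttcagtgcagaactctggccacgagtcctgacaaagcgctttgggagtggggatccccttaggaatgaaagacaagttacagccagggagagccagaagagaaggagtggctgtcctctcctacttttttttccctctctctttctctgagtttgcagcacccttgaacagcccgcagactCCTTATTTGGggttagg
Pdgfd lies on the plus strand of chromosome 9, with this window at chr9:6168236-6168485, and holds 1 TATAA that begins 160 bases before the start.
Pdgfd: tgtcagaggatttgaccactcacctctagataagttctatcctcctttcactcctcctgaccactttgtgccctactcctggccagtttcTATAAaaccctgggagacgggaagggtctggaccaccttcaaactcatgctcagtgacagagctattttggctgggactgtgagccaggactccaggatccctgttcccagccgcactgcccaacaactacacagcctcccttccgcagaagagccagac
Of 32841 promoter windows of this length, 1.47% held a CArG box and 22.8% held TATAA. These matches describe letters only, and the motifs were chosen after the sequences were seen.

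The 6 genes differed in the classes where they were highest. Pdgfra was highest in fibroblast-like and valve interstitial-like nuclei, and Pdgfrb in pericyte-like nuclei. Pdgfb was highest in lymphatic endothelial-like, endothelial-like and macrophage-like nuclei, which together held 80.6% of its UMIs, while Pdgfc and Pdgfd were both highest in smooth muscle-like nuclei. Valve interstitial-like nuclei as a class carried both receptors, in unequal proportion between their 2 clusters, and had the lowest Pdgfd of all 10 classes. Levels below are UMIs per 1000000 summed UMIs of a class in a pool (CPM), and a level of 1 gene is compared only with its own level elsewhere, because CPM is not scaled for gene length.

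**Figure D1:**
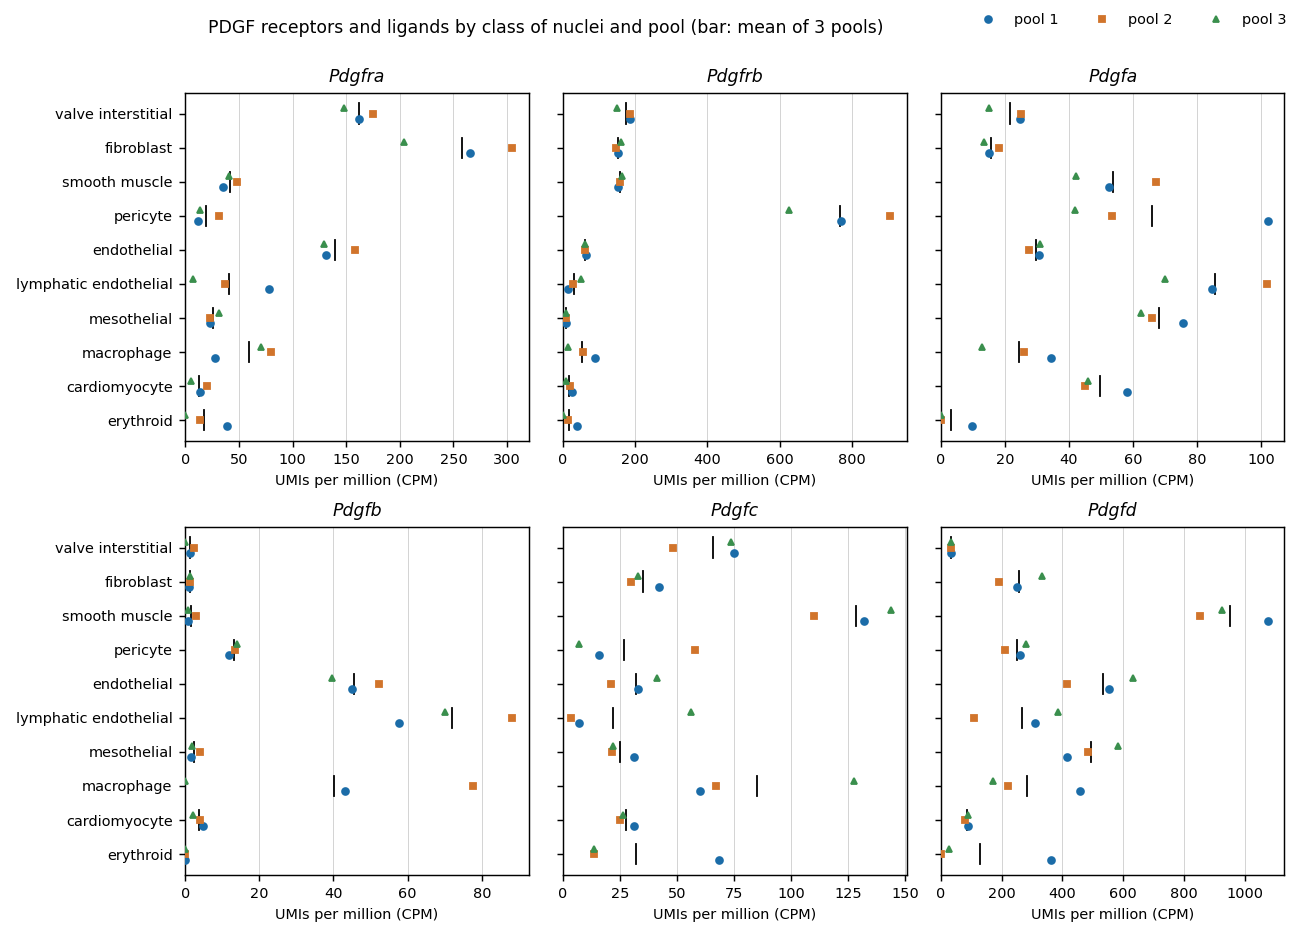
Level of each PDGF gene (x axis, CPM, its own scale per panel) in each class of nuclei (y axis), with 1 point per pool and a bar at the mean of 3 pools. Pdgfrb stands out in the pericyte-like class at 768 CPM, Pdgfd in the smooth muscle-like class at 952 CPM, and Pdgfb is near 0 in the valve interstitial-like, fibroblast-like and smooth muscle-like classes.

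Among receptors, Pdgfra measured 265, 305 and 204 CPM in the fibroblast-like nuclei of pools 1, 2 and 3. In valve interstitial-like nuclei, the cells that build the leaflet matrix, it measured 162, 175 and 148 CPM. In endothelial-like nuclei it measured 131, 158 and 129 CPM. The fibroblast-like values lay above all others in every pool, while the valve interstitial-like and endothelial-like ranges overlapped. That overlap rested on 1 endothelial-like cluster of 252 nuclei, led by Dlgap2 and described further on, which measured 990, 1079 and 950 CPM, above every fibroblast-like cluster. Without it the endothelial-like pools had 49.2, 56.3 and 41.5 CPM. The next class, macrophage-like, reached 59.3 ± 28.0 CPM (SD, n = 3 pools), and the remaining 6 classes had means of at most 41.3 CPM with overlapping neighbours.

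Pdgfrb measured 770, 906 and 627 CPM in pericyte-like nuclei of pools 1, 2 and 3. These values lay far above those of any other class, with a mean 4.44 times that of valve interstitial-like nuclei, the next in order. Valve interstitial-like nuclei had 173 ± 21.3 CPM (SD, n = 3), smooth muscle-like nuclei 158 ± 6.19 CPM and fibroblast-like nuclei 153 ± 7.80 CPM. These 3 classes overlapped in their pools, and all stood above endothelial-like nuclei, which had 61.8 ± 2.21 CPM. Mesothelial-like nuclei, the covering layer of the heart surface, had the lowest mean of Pdgfrb at 7.57 ± 0.904 CPM. Cardiomyocyte-like nuclei, at 16.6 ± 8.39 CPM, overlapped with them, with 7.22 CPM in pool 3, and had 6.04 ± 0.901 CPM without a cluster led by Mb. Erythroid-like nuclei had no Pdgfrb UMI in pool 3.

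Among ligands, Pdgfa was spread over many classes. It measured 84.7, 102 and 70.1 CPM in lymphatic endothelial-like nuclei, and means of 68.0 ± 6.73, 65.9 ± 32.0, 53.9 ± 12.5 and 49.8 ± 7.34 CPM (SD, n = 3) in mesothelial-like, pericyte-like, smooth muscle-like and cardiomyocyte-like nuclei. Each of these 5 classes overlapped its neighbour in the order. A gap followed, since the lowest cardiomyocyte-like pool had 45.1 CPM and the highest endothelial-like pool 31.0 CPM. The classes richest in Pdgfra had little of this ligand, with 21.6 ± 5.80 CPM in valve interstitial-like and 15.5 ± 2.45 CPM in fibroblast-like nuclei.

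Pdgfb was the most restricted ligand. In lymphatic endothelial-like nuclei it measured 57.6, 88.2 and 70.1 CPM, and in endothelial-like nuclei 44.9, 52.3 and 39.7 CPM. Every lymphatic pool exceeded every endothelial pool, although the difference of 0.51 on the log2 scale (SE 0.29) did not pass the test (edgeR adjusted p = 0.291). Macrophage-like nuclei had 43.0 and 77.5 CPM in pools 1 and 2 and no UMI in pool 3, where 156501 UMIs were counted and a count of 0 allows up to 19.2 CPM. Over all pools these classes held 776 of 963 Pdgfb UMIs. Cardiomyocyte-like nuclei held 63, at 3.62 ± 1.46 CPM (SD, n = 3), and the unnamed cluster led by Mylk4 held 72. The other classes rested on few molecules: 8 UMIs in pericyte-like, 8 in valve interstitial-like, 7 in fibroblast-like, 9 in mesothelial-like and 14 in smooth muscle-like nuclei, and none in erythroid-like nuclei.

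Pdgfc measured 132, 110 and 144 CPM in smooth muscle-like nuclei. Macrophage-like nuclei followed with 60.2, 67.2 and 128 CPM, and overlapped with smooth muscle-like nuclei through pool 3. Valve interstitial-like nuclei had 75.1, 48.4 and 73.8 CPM, all above the fibroblast-like pools, of which the highest had 42.1 CPM. The other 6 classes lay between 22.1 and 31.9 CPM on average and overlapped one another.

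Pdgfd measured 1077, 853 and 925 CPM in smooth muscle-like nuclei. Endothelial-like nuclei had 535 ± 111 CPM (SD, n = 3) and mesothelial-like nuclei 495 ± 84.5 CPM, and the highest of these pools stayed below every smooth muscle-like pool. Macrophage-like, lymphatic endothelial-like, fibroblast-like and pericyte-like nuclei followed with overlapping means between 249 and 284 CPM. In valve interstitial-like nuclei Pdgfd measured 34.0, 32.3 and 32.8 CPM, and no pool of any other class but erythroid-like was as low. The erythroid-like class had 37, 0 and 2 UMIs of Pdgfd in the 3 pools, in totals of 73104 to 102227 UMIs, and its levels carry little weight.

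The share of nuclei with a UMI was compared after thinning each nucleus to 1000 UMIs, so that depth was equal. Pdgfd was seen in 47.7% ± 4.83 of smooth muscle-like nuclei (SD, n = 3; 72.1% without thinning) and in 2.10% ± 0.580 of valve interstitial-like nuclei (6.84% without thinning). Erythroid-like nuclei, which should hold little of any PDGF RNA, gave 2.67% ± 4.62 (7.03% without thinning; median depths before thinning were 2821 UMIs in erythroid-like, 3610.5 in valve interstitial-like and 3430 in smooth muscle-like nuclei). The erythroid-like value rested on 2 of 73 thinned nuclei, both in pool 1, and sets no firm background level. Whether the valve interstitial-like share lay above that of free RNA was not tested.

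Pdgfra was seen in 25.2% ± 3.46 of thinned fibroblast-like and 13.4% ± 2.95 of thinned valve interstitial-like nuclei, and in 0 of 73 thinned erythroid-like nuclei, a count that allows up to 4.11% of them. Pdgfrb was seen in 45.3% ± 8.95 of thinned pericyte-like nuclei (78.5% without thinning), against 1.33% ± 2.31 of erythroid-like nuclei. For Pdgfb the thinned shares were 6.29% ± 3.68 in lymphatic endothelial-like, 3.62% ± 0.187 in endothelial-like and 0.0333% ± 0.0577 in smooth muscle-like nuclei. These shares cover nuclei with a UMI at this depth, and a nucleus without one may still express the gene.

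Each class was next tested against the equally weighted mean of the other 9 classes with edgeR's quasi-likelihood test, pool as a block, and p adjusted over 14377 genes. The erythroid-like class, whose erythroid markers summed to 611296, 877427 and 853401 CPM in pools 1, 2 and 3, lowered that mean: the median over all genes was -1.67 on the log2 scale in the erythroid-like contrast and 0.13 to 0.32 in the others, so small positive differences near 0.3 are the typical gene. In the erythroid-like contrast none of the 6 PDGF genes was called by edgeR or DESeq2, where edgeR called 6.36% of all genes, and 0 of them had an unadjusted edgeR p under 0.05. Contrasts of Pdgfb are given from the fit without the erythroid-like class, because that class held no UMI of it. Counts of genes called come from the fit with all classes. Without the erythroid-like class they were 6 of 6 in valve interstitial-like, 4 in fibroblast-like, 5 in smooth muscle-like, 2 in pericyte-like, 5 in endothelial-like, 4 in lymphatic endothelial-like, 5 in mesothelial-like, 4 in cardiomyocyte-like and 3 in macrophage-like nuclei. The shares of all genes called in that fit were, in the same order, 33.7%, 30.3%, 42.3%, 10.3%, 36.7%, 20.4%, 55.4%, 58.7% and 28.0%.

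In valve interstitial-like nuclei 4 of 6 genes were called, against 28.7% of all genes. Pdgfra was higher by 1.76 on the log2 scale (SE 0.14, higher in 3 of 3 pools, edgeR adjusted p = 9.64e-14). Pdgfrb was higher by 1.45 (SE 0.14, 3 of 3 pools, edgeR adjusted p = 2.44e-11). Pdgfd, with a log2 difference of -3.33 (SE 0.27, lower in 3 of 3 pools, edgeR adjusted p = 7.25e-14), was the member farthest from the mean in this class.
Pdgfc was higher by 0.65 (edgeR adjusted p = 0.00201, SE 0.17), a call lost without pool 1 (edgeR adjusted p = 0.0658). Pdgfa differed by -0.79 and did not pass with the erythroid-like class in the mean (edgeR adjusted p = 0.0728), and passed at -1.01 without it (edgeR adjusted p = 3.10e-06). Pdgfb was lower, at -2.58 on the log2 scale in that fit (edgeR adjusted p = 4.61e-05).

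In fibroblast-like nuclei 3 of 6 genes were called, against 26.1% of all genes. Pdgfra was higher by 2.46 (SE 0.13, 3 of 3 pools, edgeR adjusted p = 9.41e-20) and Pdgfrb by 1.20 (SE 0.15, 3 of 3 pools, edgeR adjusted p = 1.09e-08). Pdgfa differed by -1.42 (edgeR adjusted p = 0.00817, SE 0.42), and with doublets kept the edgeR adjusted p was 0.0897. Without pool 1 the difference was -0.46 with an SE of 19.4. The erythroid-like class held no Pdgfa UMI in pools 2 and 3, so that run says little about the call. Pdgfb was lower, at -2.85 in the fit without the erythroid-like class (edgeR adjusted p = 1.62e-05). In that fit both connective tissue classes were higher in the receptors and lower in Pdgfa and Pdgfb.

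In smooth muscle-like nuclei 4 of 6 genes were called, all higher, against 34.7% of all genes. Pdgfd was higher by 2.21 (SE 0.16, 3 of 3 pools, edgeR adjusted p = 1.49e-15) and Pdgfc by 1.84 (SE 0.13, 3 of 3 pools, edgeR adjusted p = 6.38e-16). Pdgfrb was higher by 1.43 (edgeR adjusted p = 7.56e-12, SE 0.14) and Pdgfa by 0.73 (edgeR adjusted p = 0.000276, SE 0.16). Pdgfra, at -0.35, did not pass (edgeR adjusted p = 0.166).

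In pericyte-like nuclei 3 of 6 genes were called, against 9.52% of all genes. Pdgfrb was higher by 3.81 (SE 0.16, 3 of 3 pools, edgeR adjusted p = 2.57e-22), which was 14.0-fold. Pdgfra differed by -1.72 (edgeR adjusted p = 0.018, SE 0.50) and Pdgfa by 1.01 (edgeR adjusted p = 0.0296, SE 0.31). Both of the latter calls were lost without pool 1 (edgeR adjusted p = 0.233 and 0.385), and the Pdgfa call was also lost without the erythroid-like class (edgeR adjusted p = 0.0764), with doublets kept (0.129), at either other resolution (0.0682 and 0.0567), at 500 UMIs (0.350) and with no filter on low counts (0.0648). The Pdgfra call was also lost at resolution 2 (edgeR adjusted p = 0.0581).

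In endothelial-like nuclei 4 of 6 genes were called, against 30.1% of all genes. Pdgfb was higher by 3.08 in the fit without the erythroid-like class (edgeR adjusted p = 1.34e-16, SE 0.18), Pdgfra by 1.51 (edgeR adjusted p = 7.50e-13, SE 0.13) and Pdgfd by 1.12 (edgeR adjusted p = 6.74e-07, SE 0.17). The Pdgfra call was lost without the Dlgap2 cluster, at 0.03 (edgeR adjusted p = 0.976). Pdgfc, at -0.56, passed (edgeR adjusted p = 0.0101), but not without pool 1, without pool 2 or without the pool block (edgeR adjusted p = 0.167, 0.146 and 0.102).
In lymphatic endothelial-like nuclei 4 of 6 genes were called, against 17.2% of all genes. Pdgfb was higher by 3.64 in the fit without the erythroid-like class (edgeR adjusted p = 1.90e-10, SE 0.35) and Pdgfa by 1.32 (edgeR adjusted p = 0.000248, SE 0.27). Pdgfrb and Pdgfc were lower, at -1.70 and -1.77 (edgeR adjusted p = 0.00265 and 0.00645), and neither passed without pool 1 (edgeR adjusted p = 0.225 and 0.238). Pdgfc did not pass without pool 2 either (edgeR adjusted p = 0.132).

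Mesothelial-like nuclei had 4 of 6 genes called, against 45.3% of all genes, with Pdgfa higher by 1.29 (edgeR adjusted p = 1.55e-08, SE 0.17) and Pdgfd higher by 1.24 (edgeR adjusted p = 1.57e-07, SE 0.18). Pdgfrb, at -3.24 (edgeR adjusted p = 1.52e-09, SE 0.39), and Pdgfra, at -1.02 (edgeR adjusted p = 0.0011, and 0.0911 without pool 1), were lower. Cardiomyocyte-like nuclei had 4 of 6 called, against 45.2% of all genes: Pdgfa was higher by 0.86 (edgeR adjusted p = 3.73e-06), and Pdgfra, Pdgfrb and Pdgfd differed by -1.91, -1.90 and -1.44.
Macrophage-like nuclei had 1 of 6 called, Pdgfb, against 24.1% of all genes. Without the erythroid-like class 3 were called: Pdgfb, higher by 2.88 (edgeR adjusted p = 8.58e-09, SE 0.33) with no UMI in pool 3, Pdgfc, higher by 0.79 (edgeR adjusted p = 0.0215), and Pdgfa, lower, at -0.85 (edgeR adjusted p = 0.0167). Where so large a share of all genes is called, as in the mesothelial-like and cardiomyocyte-like contrasts, a count of 4 of 6 says little about the PDGF genes as a group.

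**Figure D2:**
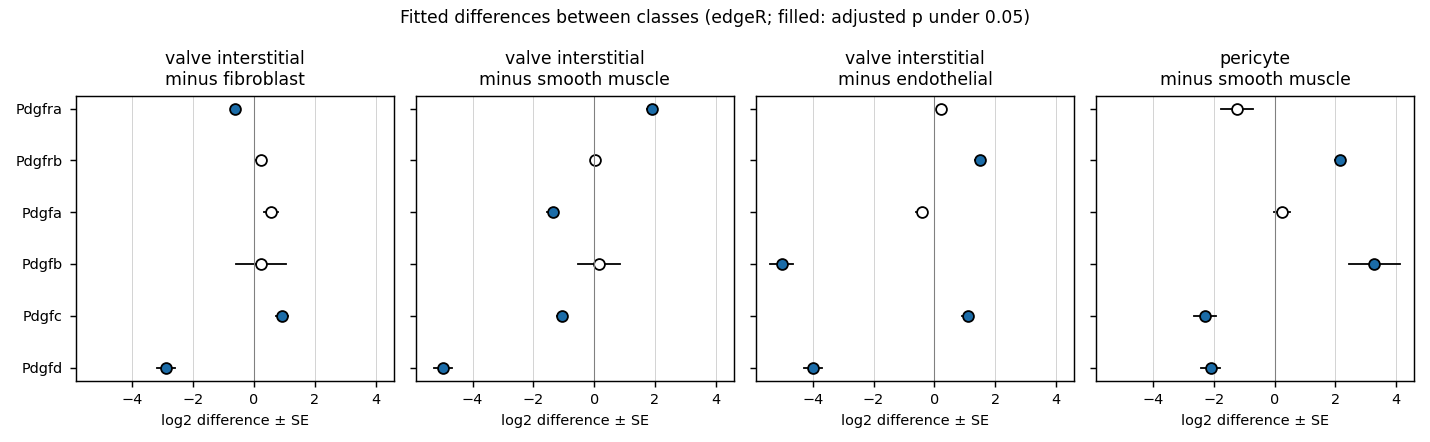
Fitted log2 difference between pairs of classes for each PDGF gene (x axis, log2 scale; point, estimate; line, standard error; filled, edgeR adjusted p under 0.05). Valve interstitial-like nuclei differ from smooth muscle-like nuclei by -4.98 in Pdgfd and by 0.02 in Pdgfrb, and pericyte-like nuclei exceed smooth muscle-like nuclei in Pdgfrb by 2.14.

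Pairs of classes were then compared, a receptor class with its neighbour or with a ligand class. Valve interstitial-like and fibroblast-like nuclei differed in 3 of 6 genes, against 18.7% of all genes. Valve interstitial-like nuclei had less Pdgfd, at -2.91 (SE 0.30, lower in 3 of 3 pools, edgeR adjusted p = 1.41e-10), which was 7.51-fold. They had more Pdgfc, by 0.93 (edgeR adjusted p = 0.000226, SE 0.19), a call lost when doublets were kept, when clustering was coarser and when the mitochondrial limit was dropped (edgeR adjusted p = 0.499, 0.819 and 0.122). Pdgfra was lower, at -0.63 (edgeR adjusted p = 0.000477, SE 0.14), a call lost in the same 3 settings, without pool 2 (edgeR adjusted p = 0.109), without the pool block (0.0904) and with DESeq2 (adjusted p = 0.121). Pdgfrb differed by 0.23 (SE 0.15) and did not pass (edgeR adjusted p = 0.36).

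Against smooth muscle-like nuclei, the vessel wall class, valve interstitial-like nuclei differed in 4 of 6 genes, against 30.7% of all genes. Pdgfd differed by -4.98 (SE 0.30, 3 of 3 pools, edgeR adjusted p = 6.90e-18), which was 31.5-fold. Pdgfra was higher by 1.90 (edgeR adjusted p = 1.74e-13, SE 0.16), and Pdgfa and Pdgfc were lower, at -1.37 and -1.07 (edgeR adjusted p = 9.27e-09 and 1.13e-07). The Pdgfrb difference was 0.02 with a standard error of 0.14.

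Against endothelial-like nuclei, valve interstitial-like nuclei differed in 4 of 6 genes, against 39.3% of all genes. Pdgfb differed by -5.02 (SE 0.38, 3 of 3 pools, edgeR adjusted p = 6.73e-15) and Pdgfd by -4.00 (SE 0.30, 3 of 3 pools, edgeR adjusted p = 2.35e-15). Pdgfrb was higher by 1.50 (edgeR adjusted p = 1.92e-11, SE 0.15) and Pdgfc by 1.09 (edgeR adjusted p = 9.21e-07, SE 0.17). Pdgfra differed by 0.22 and did not pass (edgeR adjusted p = 0.206), a value that rested on the Dlgap2 cluster: without it the endothelial-like level was 49.0 CPM against 162 CPM in valve interstitial-like nuclei.

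Pericyte-like and smooth muscle-like nuclei, both of the vessel wall, differed in 4 of 6 genes, against 10.4% of all genes. Pdgfrb was higher in pericyte-like nuclei by 2.14 (SE 0.16, 3 of 3 pools, edgeR adjusted p = 6.74e-14), or 4.42-fold. Pdgfc and Pdgfd were lower, at -2.28 (edgeR adjusted p = 9.19e-06, SE 0.37) and -2.11 (edgeR adjusted p = 8.33e-07, SE 0.30). Pdgfb was higher by 3.28 (edgeR adjusted p = 0.00632, SE 0.85) on 8 UMIs, and not without pool 1 or with doublets kept (edgeR adjusted p = 0.173 and 0.143).

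Pericyte-like and endothelial-like nuclei differed in 5 of 6 genes, against 20.2% of all genes. Pdgfrb was higher in pericyte-like nuclei by 3.62 (edgeR adjusted p = 1.27e-20, SE 0.17), and Pdgfra was lower, at -2.90 (edgeR adjusted p = 5.24e-07, SE 0.42), or at -1.42 without the Dlgap2 cluster (edgeR adjusted p = 0.0393). Pdgfb, at -1.90, and Pdgfa, at 1.21, passed as well (edgeR adjusted p = 0.00371 and 0.00196), but not without pool 1 (edgeR adjusted p = 0.0564 and 0.319). Pdgfd was lower, at -1.13 (edgeR adjusted p = 0.00442).

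Endothelial-like and smooth muscle-like nuclei differed in 6 of 6 genes, against 50.4% of all genes, and in 5 without the Dlgap2 cluster, where the Pdgfra call was lost (edgeR adjusted p = 0.371). Of the others, Pdgfb was higher in endothelial-like nuclei by 5.18 (edgeR adjusted p = 2.37e-17, SE 0.33) and Pdgfc was lower, at -2.17 (edgeR adjusted p = 7.65e-17, SE 0.15). Fibroblast-like and mesothelial-like nuclei differed in 4 of 6 genes, against 54.3% of all genes: fibroblast-like nuclei had more Pdgfrb (153 against 7.57 CPM, edgeR adjusted p = 4.70e-16) and more Pdgfra, by 3.13 (SE 0.20), and less Pdgfa and Pdgfd, at -2.44 and -1.20. The Pdgfd call there was lost with doublets kept and at the coarser clustering (edgeR adjusted p = 0.191 and 0.203). Lymphatic endothelial-like and endothelial-like nuclei differed in 4 of 6 genes, against 14.2% of all genes. Lymphatic nuclei had more Pdgfa, by 1.49 (edgeR adjusted p = 2.00e-05, SE 0.26), and less Pdgfra, at -1.67 (edgeR adjusted p = 6.20e-05, and 0.805 without the Dlgap2 cluster). They also had less Pdgfrb and Pdgfd, at -1.34 and -1.18 (edgeR adjusted p = 0.0261 and 0.00298), and neither passed without pool 2 (edgeR adjusted p = 0.137 and 0.0589). Pdgfrb was also lost without pool 1 and with no mitochondrial limit (edgeR adjusted p = 0.221 and 0.141), and Pdgfd without the pool block (0.0626).

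The balance of the receptors was compared between classes as the percent of receptor UMIs that were Pdgfra. It was 48.4% ± 1.63 in valve interstitial-like nuclei (SD, n = 3), a blend of 51.9% ± 1.18 in the cluster led by Rmst and 37.6% ± 7.73 in that led by Abi3bp (63 Pdgfra and 147 Pdgfrb UMIs in pool 1, and 37.4% and 45.5% in pools 2 and 3). It was 62.3% ± 5.98 in fibroblast-like, 20.7% ± 2.42 in smooth muscle-like and 2.34% ± 0.924 in pericyte-like nuclei. Endothelial-like nuclei had 69.2% ± 2.86, and 44.6% ± 2.58 without the Dlgap2 cluster. These ranges over pools did not overlap between valve interstitial-like, fibroblast-like, smooth muscle-like and pericyte-like nuclei. Since transcript lengths differ, a share near 50% does not mean equal amounts of the receptors.

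**Figure D3:**
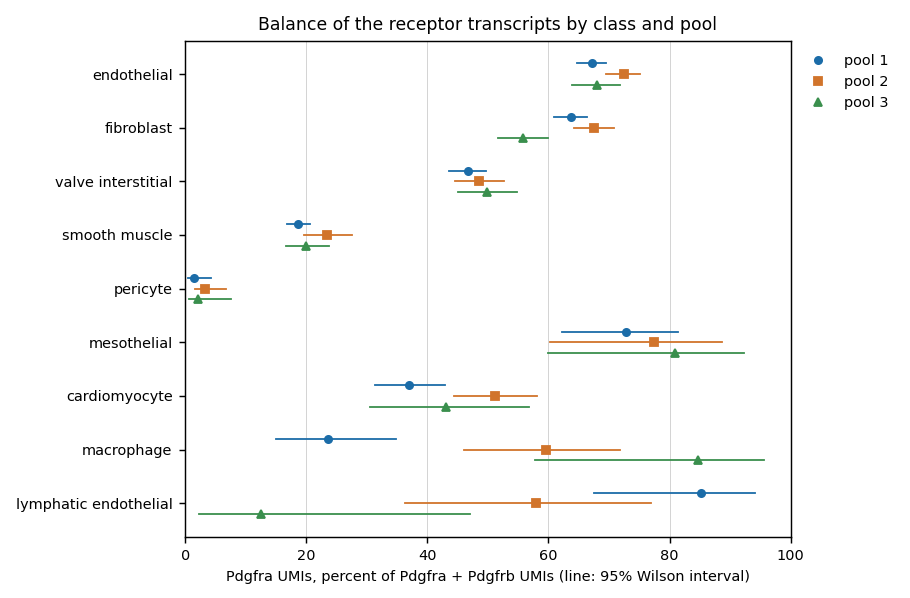
Pdgfra UMIs as a percent of Pdgfra and Pdgfrb UMIs together (x axis) in each class (y axis), with 1 point per pool and its 95% Wilson interval, which covers counting error only. Valve interstitial-like pools sit between 46.6% and 49.9%, smooth muscle-like pools between 18.7% and 23.4% and pericyte-like pools between 1.51% and 3.33%, while macrophage-like and lymphatic endothelial-like pools scatter widely on few UMIs.

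Both receptors were found in the same nucleus in 16.7% ± 5.58 of valve interstitial-like nuclei (SD, n = 3) and 23.1% ± 3.79 of fibroblast-like nuclei without thinning. After thinning to 1000 UMIs the valve interstitial-like class had 36 such nuclei, where the product of the separate shares gives 28.0, and the fibroblast-like class had 33, where it gives 40.1. Nuclei of 1 pool are not replicates, so these counts are given without a test. In smooth muscle-like nuclei, which carry receptor and ligand RNA, Pdgfrb and Pdgfd were seen together in 204 thinned nuclei, where the product gives 224.

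The endothelial-like Pdgfra came mostly from 1 cluster. This cluster of 252 nuclei was led by Dlgap2, Cntnap5a and the unnamed loci LOC118567340 and Gm52229, and its Pdgfra measured 990, 1079 and 950 CPM in pools 1, 2 and 3. The other endothelial-like clusters with at least 20 nuclei per pool had means between 10.0 and 83.6 CPM. The cluster held 9.23% of the endothelial-like nuclei and 67.5% of their Pdgfra UMIs (65.8%, 68.0% and 71.0% by pool). It was singled out after its values were seen, so its level is a description with no test.

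Without these nuclei, endothelial-like Pdgfra was 49.0 ± 7.37 CPM (SD, n = 3), its difference from the mean of the other classes was 0.03 on the log2 scale (edgeR adjusted p = 0.976), and its excess over smooth muscle-like nuclei was 0.19 (edgeR adjusted p = 0.371). The lower Pdgfra of lymphatic endothelial-like nuclei also ended, at -0.18 (edgeR adjusted p = 0.805). Since the cluster was left out for its high Pdgfra, a lower endothelial-like level was fixed by that choice, and these values show only how far the class level rested on the cluster.

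The Dlgap2 cluster passed for 7 endothelial markers: Pecam1, Cdh5, Tie1, Kdr, Flt1, Egfl7 and Nos3. Of its 208 nuclei with a Pdgfra UMI, 206 also held UMIs of at least 3 endothelial markers. The summed endothelial markers measured 5335 CPM in nuclei with Pdgfra and 6068 CPM in those without, against 7529 CPM in all endothelial-like nuclei. The summed fibroblast markers were 1127 CPM and 963 CPM in the same nuclei, against 7233 CPM in the fibroblast-like class and 1074 CPM in all endothelial-like nuclei. The summed valve interstitial markers were 3054 CPM and 2883 CPM, against 13193 CPM in the valve interstitial-like class and 3062 CPM in all endothelial-like nuclei. Genes named here after their values were seen included Prox1, a regulator of lymphatic and valve endothelium, at 1544 CPM, Enpp2, which makes lysophosphatidic acid, at 1155 CPM, and Foxc2, a forkhead factor of valve endothelium, at 123 CPM, where the other endothelial-like clusters had up to 241, 40.2 and 39.0 CPM. The lymphatic endothelial-like cluster had 1369 CPM of Prox1 and 56.1 CPM of Foxc2. Flt1, which encodes a VEGF receptor, was at 1594 CPM, and Pdgfb at 10.0 CPM, in the lower part of the endothelial-like range.

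**Figure D4:**
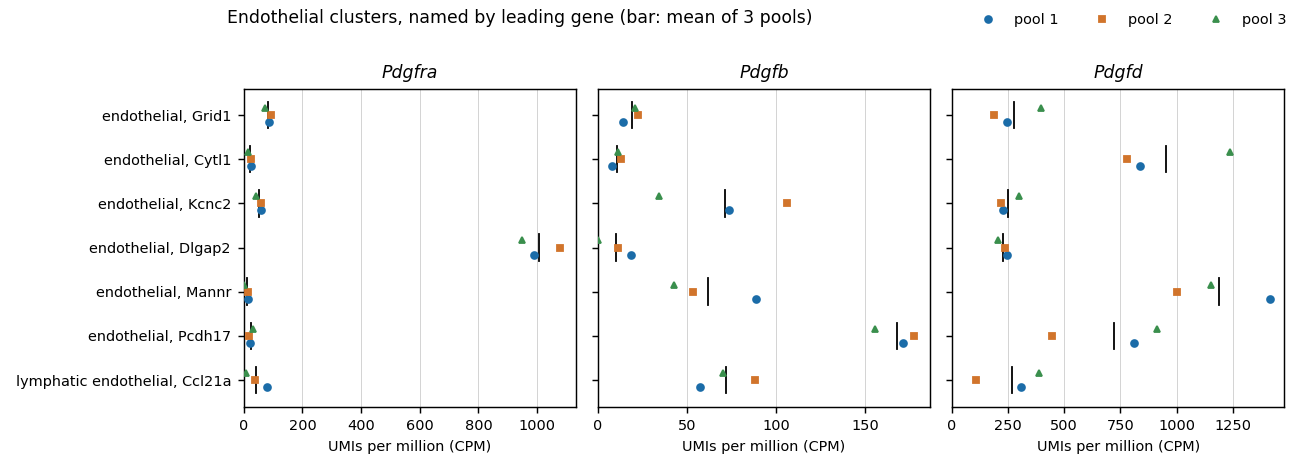
Pdgfra, Pdgfb and Pdgfd (x axis, CPM, own scale per panel) in the endothelial-like and lymphatic endothelial-like clusters with at least 20 nuclei in every pool, each named by its leading gene, with 1 point per pool and a bar at the mean of 3 pools. Pdgfra is at 1006 CPM in the Dlgap2 cluster, Pdgfb at 168 CPM in the Pcdh17 cluster and Pdgfd at 1190 CPM in the Mannr cluster.

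The ligands split the endothelial-like clusters another way. Pdgfb was highest in the cluster led by Pcdh17, Aplnr, Fabp4 and Adgrl4, at 172, 178 and 156 CPM in pools 1, 2 and 3. It was next in the Kcnc2 cluster (71.5 ± 35.9 CPM) and the Mannr cluster (61.6 ± 24.0 CPM), and at most 19.2 CPM on average in the Grid1, Cytl1 and Dlgap2 clusters. Pdgfd was highest in the Mannr cluster, where Gja5, a connexin of arterial endothelium, also led, at 1190 ± 210 CPM, and in the Cytl1 cluster, at 951 ± 250 CPM. The Dlgap2 cluster, highest in Pdgfra, had the lowest mean of Pdgfd among them, at 228 ± 21.6 CPM.

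The valve interstitial-like class held 2 clusters. In the cluster led by Rmst, Pcdh15, Rnf43 and Adamts19, Pdgfra measured 199, 205 and 157 CPM, and in that led by Abi3bp, Ctnna2, Col11a1 and Col12a1 it measured 74.5, 117 and 123 CPM. Pdgfc went the other way, with 46.0 ± 13.9 CPM in the Rmst cluster and 112 ± 24.4 CPM in the Abi3bp cluster, as did Pdgfa with 16.3 ± 5.30 and 33.8 ± 5.92 CPM. For each of these genes the pools of the clusters did not overlap, while Pdgfrb was 173 ± 21.7 and 172 ± 24.0 CPM.

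Within the smooth muscle-like class, the pair of clusters with more Pdgfd had less Pdgfrb. The Ptprz1 cluster had 1354 ± 178 CPM of Pdgfd and 118 ± 4.85 CPM of Pdgfrb, and the Neil3 cluster, led by cell division genes, had 1091 ± 35.7 and 107 ± 9.76 CPM. The Clca3a2 cluster had 564 ± 89.9 CPM of Pdgfd and 216 ± 1.17 CPM of Pdgfrb, and the Itgbl1 cluster 436 ± 61.6 and 178 ± 3.08 CPM. No pool of the first pair overlapped with a pool of the second pair in either gene. In cardiomyocyte-like nuclei, the receptor UMIs of pools 1 and 2 came mostly from 1 cluster led by Mb, with a median of 2039 UMIs: 71 of 97 and 79 of 103 for Pdgfra, and 125 of 166 and 77 of 98 for Pdgfrb. In pool 3 it held 9 of 22 and 5 of 29. Pdgfra measured 67.2 ± 9.68 CPM in this cluster, and 4.50 ± 1.22 CPM in the class without it.

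**Figure D5:**
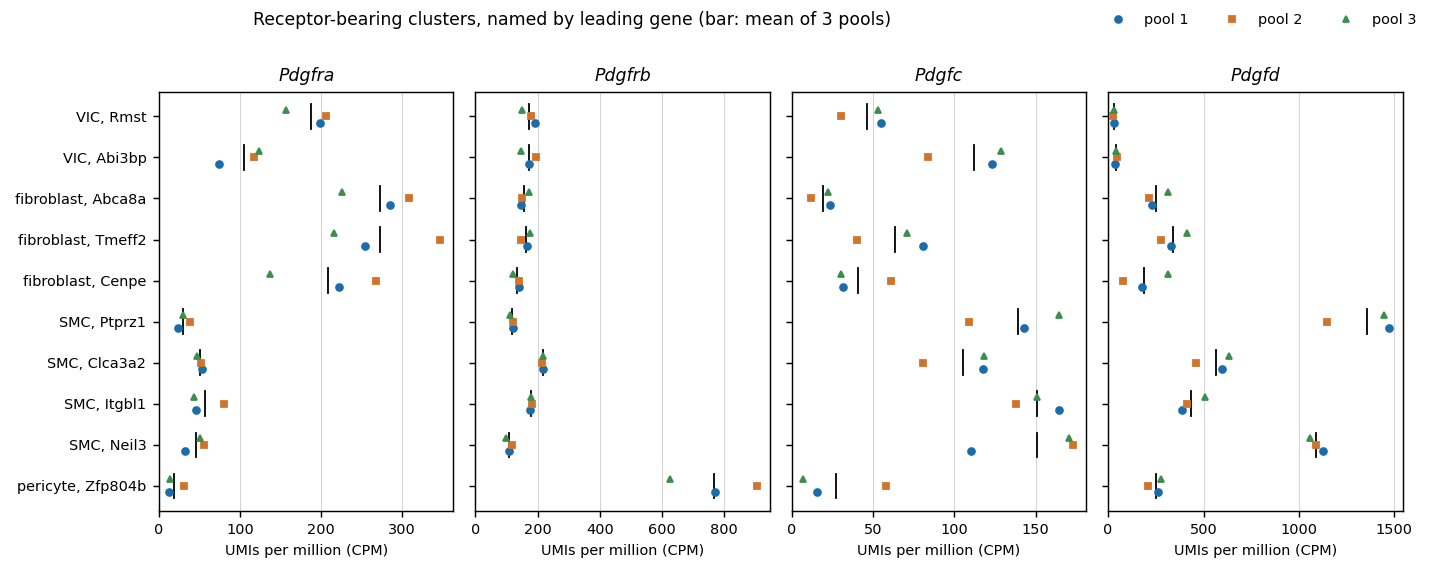
Pdgfra, Pdgfrb, Pdgfc and Pdgfd (x axis, CPM, own scale per panel) in the clusters of the valve interstitial-like (VIC), fibroblast-like, smooth muscle-like (SMC) and pericyte-like classes, each named by its leading gene, with 1 point per pool and a bar at the mean of 3 pools. The Ptprz1 and Neil3 clusters have at least 1056 CPM of Pdgfd in every pool, and the Clca3a2 and Itgbl1 clusters at most 633 CPM.

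Cycling nuclei were compared with the other nuclei of their class, a cycling nucleus having at least 2 UMIs over 12 cell cycle genes after thinning. In smooth muscle-like nuclei 1 of 5 PDGF genes tested was called, against 16.1% of all genes: Pdgfrb was lower in cycling nuclei, at -0.65 (SE 0.13, lower in 3 of 3 pools, edgeR adjusted p = 0.000253). Division genes led the Neil3 cluster, with 107 CPM of Pdgfrb, so cycling and other nuclei may lie in different clusters, and the part of cluster in this difference was not tested. In fibroblast-like nuclei 1 of 5 was called, against 15.1% of all genes, namely Pdgfd at -0.49 (edgeR adjusted p = 0.0344, SE 0.16), a call lost without pool 1 or pool 2 (edgeR adjusted p = 0.152 and 0.567) and without the pool block (0.566). With doublets kept the difference turned to 0.85, and the smooth muscle-like Pdgfrb call was lost as well (edgeR adjusted p = 0.819). The fibroblast-like class held a cluster of 211 nuclei led by the division gene Cenpe, with 68.8 ± 17.7 CPM of the valve interstitial marker Rmst. The other fibroblast-like clusters, led by Abca8a and Tmeff2, had 2.70 and 0 CPM of Rmst. The part of class naming in the fibroblast-like Pdgfd difference was not tested.
None passed with edgeR in valve interstitial-like nuclei, where 0.612% of all genes were called on 33, 13 and 16 cycling nuclei, or in endothelial-like nuclei, where 9.19% were called. DESeq2 called none in either class, and an unadjusted edgeR p under 0.05 was found for 0 of 5 genes in the former and for Pdgfb and Pdgfrb in the latter. In endothelial-like nuclei Pdgfb had a difference of 0.73 (SE 0.23, higher in 3 of 3 pools, edgeR adjusted p = 0.0671). Cycling nuclei had the higher median UMI count in every class and pool but valve interstitial-like pool 2, and the part of depth in these values was not tested.

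Genes around the pathway were read from lists, beside the median of all genes in the same contrast. Ligand processing and binding genes include the proprotein convertases and plasminogen activators that cut PDGF precursors and the binding proteins Sparc, Lrp1 and Nrp1. In valve interstitial-like nuclei 4 of 8 were higher and none lower, with a list median of 0.57 against 0.26 for all genes, of which 28.7% were called. More of the list was higher in fibroblast-like nuclei, with 6 higher, none lower and a median of 0.76 against 0.28 (26.1% of all genes called), and in mesothelial-like nuclei, with 5 higher, 1 lower and a median of 1.09 against 0.32 (45.3% called). Plat, tissue plasminogen activator, which can activate PDGF-C, was higher in valve interstitial-like nuclei by 2.45 (edgeR adjusted p = 3.75e-09, SE 0.29) at 78.0 ± 10.4 CPM. Lrp1, a large endocytic receptor, was higher by 1.35, Furin by 1.29 and Nrp1, a co-receptor, by 0.90. In lymphatic endothelial-like nuclei 3 were higher and 4 lower, with a list median of -0.07 against 0.13 and 17.2% of all genes called, among them Pcsk6, higher by 3.93 at 319 ± 21.1 CPM, and Plau, urokinase, which can activate PDGF-D, higher by 4.09 at 14.8 ± 8.50 CPM. That Plau level rested on few molecules, since 3 counts in this class give 13.8 CPM on average over the pools.
In endothelial-like nuclei 5 of 8 were higher and 2 lower, with a list median of 0.96 against 0.27 for all genes, of which 30.1% were called. Pcsk5 was higher there by 2.22 and Lrp1 was lower, at -2.53.

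Receptor damping genes, such as the Sprouty proteins and phosphatases that restrain receptor kinase signalling, were often higher in pericyte-like nuclei. There 7 of 12 were higher and none lower, with a list median of 1.26 against 0.18 for all genes, of which 9.52% were called. Spry1 was higher by 2.67 (edgeR adjusted p = 8.65e-06, SE 0.43), Spry4 by 2.41 and Spry2 by 2.04. Against smooth muscle-like nuclei, 7 of 12 were also higher in pericyte-like nuclei, with a list median of 1.06 against -0.10 for all genes, of which 10.4% were called. In valve interstitial-like nuclei 6 of 12 were higher and none lower, with a list median of 0.51 against 0.26, 28.7% of all genes called and Spry2 higher by 1.49. Macrophage-like nuclei, with 58 UMIs of Pdgfra and 75 of Pdgfrb in all, also had 6 of 12 higher and none lower, with a median of 0.57 against 0.22 and 24.1% of all genes called. In fibroblast-like nuclei 5 were higher, with Spry1 higher by 3.08, while the list median of 0.31 lay near the 0.28 of all genes, of which 26.1% were called.

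Receptor-proximal genes, the adaptors and enzymes that dock on the receptors, had the most members higher in cardiomyocyte-like nuclei, where the receptors were low: 9 of 18 were higher and 2 lower, with a list median of 0.43 against 0.26 for all genes, of which 45.2% were called. In endothelial-like nuclei 7 were higher and 2 lower, with a median of 0.33 against 0.27 and 30.1% called. Valve interstitial-like nuclei had 7 higher and none lower, against 28.7% of all genes called, and the list median of 0.25 was no higher than the 0.26 of all genes. Src, a tyrosine kinase, was higher there by 1.50 (edgeR adjusted p = 0.00118, SE 0.36). In pericyte-like nuclei 5 of 18 were higher, with a list median of 0.35 against 0.18 and 9.52% of all genes called, including Pik3r1 by 1.15 and Pik3r3 by 1.12, both regulatory subunits of phosphoinositide 3-kinase. In smooth muscle-like nuclei 2 were higher and 2 lower, with a list median of 0.05 against 0.31, 34.7% of all genes called and Fyn at -1.12.

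Of the immediate early genes, 4 of 8 tested were higher in valve interstitial-like nuclei, led by Egr3 by 4.09 (edgeR adjusted p = 1.34e-07, SE 0.55) and Egr2 by 3.01, with a list median of 1.05 against 0.26 for all genes, of which 28.7% were called. In fibroblast-like nuclei 3 of 8 were higher, led by Egr3 by 4.27, with a list median of 0.79 against 0.28 and 26.1% of all genes called. Their levels were low, with Egr3 at 11.4 ± 3.64 and 13.3 ± 7.88 CPM. In smooth muscle-like nuclei none was higher and Junb was lower, at -1.47, with a list median of 0.07 against 0.31 and 34.7% of all genes called.

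Among the kin of the PDGF receptors, Pdgfrl, a receptor-like gene, was highest in smooth muscle-like nuclei at 202 ± 2.42 CPM, higher by 2.79 (edgeR adjusted p = 2.59e-20, SE 0.14). Kitl, the ligand of the related receptor Kit, was at 192 CPM in both valve interstitial-like and endothelial-like nuclei, higher by 1.96 and 1.95, and Kit itself was higher by 3.66 in endothelial-like nuclei at 42.4 ± 5.16 CPM. Il34, a ligand of Csf1r, was higher by 4.54 in pericyte-like nuclei at 49.7 ± 12.5 CPM. Pericyte-like nuclei thus differed from smooth muscle-like nuclei in Il34, by 3.51, and in Pdgfrl, at -1.68, beside Pdgfrb. Of 12 cell cycle genes, 12 were higher in fibroblast-like, 8 in pericyte-like, 8 in smooth muscle-like, 7 in macrophage-like and 7 in mesothelial-like nuclei, with list medians of 2.38, 2.08, 1.07, 1.61 and 1.17 against 0.28, 0.18, 0.31, 0.22 and 0.32 for all genes. The shares of all genes called in these contrasts were 26.1%, 9.52%, 34.7%, 24.1% and 45.3%, so the mesothelial-like count lay nearest its background. In the erythroid-like contrast the list median was -8.29 against -1.67 for all genes, with none of the list called. That class is part of the mean in every other contrast, which raised the list medians there by more than those of all genes. In valve interstitial-like nuclei 2 were lower, with a list median of -1.65 against 0.26 and 28.7% of all genes called. Compared directly with fibroblast-like nuclei, 12 of 12 were lower, with a list median of -3.50 against 0.02 and 18.7% of all genes called. Compared with smooth muscle-like nuclei 12 of 12 were lower (-2.61 against -0.01, 30.7% called), and with endothelial-like nuclei 11 of 12 (-1.92 against -0.04, 39.3% called). Against the mean of the other classes, 2, 1 and 1 were lower in cardiomyocyte-like, endothelial-like and lymphatic endothelial-like nuclei, where 45.2%, 30.1% and 17.2% of all genes were called. Those shares count calls in both directions. Of 14377 genes, 1969, 926 and 699 were lower in these contrasts, and 1065 in the valve interstitial-like contrast. The fibroblast-like class includes the Cenpe cluster given above, and the part of class naming in these cell cycle counts was not tested.

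The genes most like each member over the 30 class sums, by Pearson r of log2(CPM + 1), were Mmp2 (0.81), Postn (0.81) and Fam102b (0.80) for Pdgfra, and Gucy1a2 (0.89), Slc12a2 (0.88) and Nfatc4 (0.87) for Pdgfrb. They were Actn4 (0.94), Lnx2 (0.94) and Agrn (0.92) for Pdgfa, C5ar2 (0.89), Rasgrp3 (0.87) and Gimap1 (0.87) for Pdgfb, Pcolce2 (0.76), Ndnf (0.75) and Trim7 (0.75) for Pdgfc, and Thsd4 (0.86), Anxa3 (0.86) and Pced1b (0.86) for Pdgfd. The sums share pools and differ in depth, so r is a description without a test. Among the members themselves the highest r was 0.65, between Pdgfa and Pdgfd, and the receptors had 0.47 with each other.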

How the data were processed

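The deposited files held UMI counts per gene and nucleus from the gene expression part of a 10x Multiome assay. Cell Ranger 7.1.0 made them per the file headers; the submitters' processing notes name Cell Ranger 7.0.1 and 7.1.0 and GRCm39. Whether intronic reads were counted is not given in the sources used here. Nuclei were isolated from frozen tissue, so the RNA is nuclear.

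Of 21140 deposited nuclei, 28.6%, 41.8% and 14.1% per pool exceeded 5% mitochondrial UMIs. Scrublet's automatic threshold marked 0 nuclei, so the nuclei with the highest scores were marked at 0.8% per 1000 deposited nuclei (598, 155 and 138). The median depth of analysed nuclei was 4283, 4756 and 3340 UMIs. Clusters were made with scanpy 1.11.5 and leidenalg 0.10.2 (2000 variable genes, 30 components, resolution 1), without the PDGF genes, the pathway lists or cell cycle genes. A cluster was named from at least 3 markers. Counts were summed per class and pool and tested with edgeR 4.0.16 (quasi-likelihood, TMM, filterByExpr, Benjamini-Hochberg over all genes tested, threshold 0.05). The pools were a block, since all classes of a pool come from the same animals. Intervals are 95% Wilson intervals, and intervals and floors (3 counts) cover counting error only. The tests were checked on simulated data.

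The genes and lists were chosen with earlier results of these data known. All 6 PDGF genes were named, up to 4 genes per pathway list with the largest difference among those called and moving alike in all pools, the 3 most alike genes per member, and the 4 leading genes of a cluster; other names were chosen after their values were seen. Alternatives were DESeq2 1.42.0, other size factors, no filter, no block, other limits on UMIs, mitochondrial share and doublets, other resolutions, other thinning, small classes left out and each pool left out. Leaving out the erythroid-like class, the Dlgap2 cluster and the Mb cluster was chosen after seeing the data.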

Additional observations from a re-analysis of the deposited data

How the results depend on the processing

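Of 67 PDGF gene differences called, 46 kept their direction and side of the threshold under every alternative run. Over all alternatives 989 values kept both, 48 kept the direction but not the call, and 1 reversed: Pdgfd in cycling against other fibroblast-like nuclei, -0.49, became 0.85 with doublets kept. The cause was not tested. The 67 leave out the fitted pairs fibroblast-like against smooth muscle-like, endothelial-like against cardiomyocyte-like and macrophage-like against endothelial-like nuclei. There 4, 5 and 3 of 6 genes were called, against 27.5%, 59.6% and 34.6% of all genes. Counts of PDGF genes called moved by over 1.5 times in the cases that follow, and smaller moves, such as 4 to 6 in valve interstitial-like nuclei without the erythroid-like class, are not listed. The fibroblast-like count of 3 became 5 without classes under 200 nuclei. The macrophage-like count of 1 became 2 with DESeq2, with RLE size factors, at 500 UMIs, with doublets kept, at resolution 2 and without the Mb cluster, and 3 without the erythroid-like class and at resolution 0.5; without 1 pool each it ranged from 1 to 2. The pericyte-like count of 3 became 1 at resolution 2 and ranged from 1 to 3 with a pool left out. The valve interstitial-like against fibroblast-like count of 3 became 1 at resolution 0.5, with doublets kept and with no mitochondrial limit. With a pool left out, the lymphatic endothelial-like count of 4 fell to 2, the pericyte-like against endothelial-like count of 5 fell to 3, and the lymphatic against endothelial-like count of 4 fell to 2. In cycling fibroblast-like nuclei the count of 1 became 0 with DESeq2, with no replicate block, at 3 cell cycle UMIs and without pool 1 or 2, 2 with no filter and 4 with doublets kept. In cycling smooth muscle-like nuclei 1 became 0 with doublets kept, and in cycling endothelial-like nuclei 0 became 1 with no filter and 2 without pool 2. Leaving out the replicate block ended 4 calls in all, those given beside their results.

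Levels and shares were followed for each gene in its highest class, with endothelial-like Pdgfra, the cardiomyocyte-like receptors, and receptor balance and pairing in some classes. Of the values followed, these moved by more than 1 SD. With doublets kept, fibroblast-like Pdgfra was 204 CPM, the Pdgfra percent of receptor UMIs was 25.7% in smooth muscle-like and 3.36% in pericyte-like nuclei, and the thinned fibroblast-like Pdgfra share was 20.6%. With no mitochondrial limit, endothelial-like Pdgfra was 160 CPM, the Pdgfra percent was 3.97% in pericyte-like and 72.9% in endothelial-like nuclei, and the fibroblast-like share was 21.1%. Without the Dlgap2 cluster endothelial-like Pdgfra was 49.0 CPM, and without the Mb cluster cardiomyocyte-like Pdgfra was 4.50 and Pdgfrb 6.04 CPM. Thinned to 2000 UMIs and without thinning, shares were 37.2% and 57.0% for fibroblast-like Pdgfra, 67.4% and 78.5% for pericyte-like Pdgfrb, 12.3% and 38.4% for lymphatic Pdgfa, 15.2% and 29.1% for lymphatic Pdgfb, 18.6% and 27.4% for smooth muscle-like Pdgfc and 65.3% and 72.1% for smooth muscle-like Pdgfd. The endothelial-like Pdgfb share, not among those followed, also rose, from 3.62% to 5.94% and 12.5% in the same runs. Both receptors together reached 16.7% of valve interstitial-like and 23.1% of fibroblast-like nuclei without thinning. Pathway list genes called ranged from 0 to 13 in the erythroid-like class (5 with all pools) and from 14 to 24 in the mesothelial-like class (25 with all pools) with a pool left out. Leaving out pool 1 ended 13 of the 67 calls and keeping doublets ended 7. The 13 include fibroblast-like Pdgfa, in a run that says little because the erythroid-like class then held no UMI of it. The lymphatic endothelial-like, pericyte-like and erythroid-like classes had 117, 128 and 73 nuclei, which limits what their values can show. Names were rebuilt from markers, and calls that set valve interstitial-like against fibroblast-like nuclei moved with that choice.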
